A study of Mus musculus with 3 samples.

Results

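The cell's supply of glutathione was followed here through 10 genes, chosen by name with earlier results of these data known. They were the cystine importer genes Slc7a11 and Slc3a2, the transsulfuration genes Cbs and Cth and the synthesis genes Gclc, Gclm and Gss. The recycling gene Gsr and the breakdown genes Chac1 and Ggct complete the set. All 10 were found, each on 1 line of a deposited table of 56691 genes. RNA had been sequenced from 3 cultures of mouse stomach organoids, which are epithelial structures grown in a gel matrix, with 1 library in each group. The Mist1- and Mist1+ cultures are labelled WT and derive from Mist1Cre/ERT2;RFPLSL mice. Gpx4 KO-Mist1+ organoids, labelled Gpx4 KO, derive from Gpx4F/F;Mist1Cre/ERT2;RFPLSL mice, and the animals were aged about 8 weeks. All 3 groups thus share a Cre recombinase fused to a modified oestrogen receptor and driven from the Mist1 locus, a gene of secretory cells, and a red fluorescent reporter behind a stop cassette. All were kept in a medium for proliferation, and every sample title carries the mark P5, which the titles do not explain. How many mice stand behind each culture, and whether or when Cre was induced, is not given in the sources used here.

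Glutathione is a tripeptide of glutamate, cysteine and glycine, and its synthesis is usually limited by cysteine. Cells obtain cysteine by importing its oxidised form, cystine, in exchange for glutamate, or by making it from the methionine product homocysteine through transsulfuration. The peroxidase GPX4 uses glutathione to reduce lipid hydroperoxides in membranes, and blocking cystine import or GPX4 can start ferroptosis, a cell death that depends on iron. Transcription of several of these genes is known to be raised by ATF4, a factor of the amino acid and endoplasmic reticulum stress responses, and by NRF2, a factor of the oxidative stress response.

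Total counts were 14943918 (Mist1-), 16187378 (Mist1+) and 16396693 (Gpx4 KO-Mist1+). Values are given as FPKM, counts per exonic length and library total. Intervals are exact 95% Poisson intervals of the counts, or for folds exact 95% intervals from the binomial split of 2 counts scaled to the library totals; they cover counting error only, and PCR copies are not independent molecules. Since each group has 1 library, differences have no replicate check and carry no p-value. Gpx4 itself was at 171, 71.6 and 90.9 FPKM in Mist1-, Mist1+ and the labelled knockout, so its count over the whole gene was not lower in the labelled knockout than in Mist1+; that count includes any exons a deletion leaves, and the label is used only as a label. Bhlha15, the Mist1 gene itself, was at 5.40, 10.2 and 6.46 FPKM (282, 580 and 370 counts), so the labelled knockout was nearer to Mist1- than to Mist1+ in this gene. The 8 gastric epithelial markers were at 23.8 FPKM or more in every library. The 8 immune cell markers summed to 4.53, 5.28 and 24.4 FPKM, nearly all of it Cd68 (4.37, 5.06 and 24.4), highest in the labelled knockout like several genes below. Ptprc, the pan-leukocyte gene, had 1, 1 and 0 counts, and Cd3e, C1qa and Itgam had 0 in every library; the part of these cells in the results was not tested. Markers of fibroblasts, endothelium, smooth muscle, and neurons and glia summed to at most 0.12, 0.21, 0.32 and 1.05 FPKM in any library.

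The promoters of 5 of the genes are shown: Slc7a11, Chac1, Gclm and Ggct, whose windows hold a match to 1 of the motifs searched, and Slc3a2, the partner of Slc7a11, whose window holds none. They were chosen after the values and matches were seen. Each sequence is the 250 bases before the RefSeq start site in GRCm38.p6, read along the gene's strand. The Slc3a2 sequence lies inside the gene span given below, so the bases before the end of that span were not searched. Capitals mark matches to TGATGNAA, the ATF4-binding core of amino acid response elements, and to TGACNNNGC, the core of the antioxidant response element bound by NRF2, on either strand.
Slc7a11, chr3:50443614-50443863, minus strand: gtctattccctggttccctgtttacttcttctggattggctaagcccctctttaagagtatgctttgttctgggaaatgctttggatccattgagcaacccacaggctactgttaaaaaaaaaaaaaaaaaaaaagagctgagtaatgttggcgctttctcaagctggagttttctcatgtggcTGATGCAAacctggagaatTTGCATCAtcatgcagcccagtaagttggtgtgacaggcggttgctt
Chac1, chr2:119350992-119351241, plus strand: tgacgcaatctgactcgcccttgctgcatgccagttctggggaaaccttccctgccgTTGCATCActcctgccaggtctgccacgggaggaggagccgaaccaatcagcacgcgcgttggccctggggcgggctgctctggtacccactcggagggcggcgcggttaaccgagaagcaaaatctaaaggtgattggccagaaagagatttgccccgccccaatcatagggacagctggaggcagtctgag
Slc3a2, chr19:8713898-8714147, minus strand: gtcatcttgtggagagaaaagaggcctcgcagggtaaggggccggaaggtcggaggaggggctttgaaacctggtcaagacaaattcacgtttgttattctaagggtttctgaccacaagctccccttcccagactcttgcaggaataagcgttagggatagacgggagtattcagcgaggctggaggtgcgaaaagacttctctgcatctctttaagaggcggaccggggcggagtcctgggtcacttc
Gclm, chr3:122245307-122245556, plus strand: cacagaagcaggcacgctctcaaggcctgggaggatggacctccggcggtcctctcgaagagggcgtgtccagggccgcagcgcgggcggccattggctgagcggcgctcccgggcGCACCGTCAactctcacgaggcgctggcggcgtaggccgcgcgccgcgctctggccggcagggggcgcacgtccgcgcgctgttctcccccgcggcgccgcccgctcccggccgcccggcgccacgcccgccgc
Ggct, chr6:54992868-54993117, minus strand: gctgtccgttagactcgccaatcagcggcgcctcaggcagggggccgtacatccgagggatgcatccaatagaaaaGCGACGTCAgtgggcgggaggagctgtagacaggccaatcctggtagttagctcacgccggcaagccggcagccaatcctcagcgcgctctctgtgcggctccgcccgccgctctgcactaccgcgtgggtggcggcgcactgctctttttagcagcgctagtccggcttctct

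The Slc7a11 window held the ATF4 core on both strands, at 66 to 59 and at 47 to 40 bases before the start, and the Chac1 window held it once, at 193 to 186 bases before the start. RefSeq windows of 250 bases before to 50 after the start were matched for 7 of the 10 genes (Slc7a11, Slc3a2, Gclm, Gss, Chac1, Cbs and Ggct). Of the Ggct matches 1 lies after the start, at bases 5 to 13, outside the sequence shown. Of these 7, Slc7a11 and Chac1 held TGATGNAA and Gclm and Ggct held TGACNNNGC. Over all 32851 windows in the RefSeq table the shares were 3.97% and 12.4%. The motifs do not overlap in these windows, and a match describes letters only.

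Slc7a11 (chr3:49892526-50443614, minus strand, in the GRCm38 annotation GENCODE M21, as for all spans below) encodes xCT, the subunit that carries cystine inward. It had 1091 counts in Mist1-, 1219 in Mist1+ and 4098 in the labelled knockout, or 5.24 (4.93 to 5.56), 5.41 (5.11 to 5.72) and 17.9 FPKM (17.4 to 18.5). Both libraries labelled WT were thus low, with overlapping intervals, and the labelled knockout was high. The fold over Mist1- was 3.42 (3.20 to 3.66), close to the 3.32 (3.11 to 3.54) over Mist1+. In bulk RNA, more cells of a type and more RNA per cell cannot be told apart.

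Slc3a2 (chr19:8706882-8723369, minus strand) encodes the heavy chain that brings xCT, and several other amino acid carriers, to the cell surface. It had 1611, 1336 and 2910 counts in Mist1-, Mist1+ and the labelled knockout, or 30.6 FPKM (29.1 to 32.1), 23.4 (22.2 to 24.7) and 50.3 (48.5 to 52.2). The labelled knockout was again the highest, 1.65-fold (1.55 to 1.75) over Mist1-. By FPKM the heavy chain gene stood above the xCT gene in every library, but by less in the labelled knockout. The ratio of their FPKM was 2.80 (2.67 to 2.94) there, 4.32 (4 to 4.68) in Mist1+ and 5.83 (5.39 to 6.30) in Mist1-. Its size depends on the exonic lengths, 13922 bases for Slc7a11 and 3529 for Slc3a2. By counts Slc7a11 was the higher in the labelled knockout, at 4098 against 2910. Of the other carriers that pair with Slc3a2, Slc7a5, which exchanges large neutral amino acids, was at 14.4, 19.3 and 39.4 FPKM. Slc7a6 and Slc7a7, which carry cationic amino acids, were at 10.8, 12.9 and 13.3 and at 5.79, 5.65 and 7.40 FPKM. Slc7a5 thus stood about as far above Mist1+ in the labelled knockout as Slc3a2 did, 2.04-fold (1.91 to 2.19), and Slc7a6 was within counting error there.

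**Figure D1:**
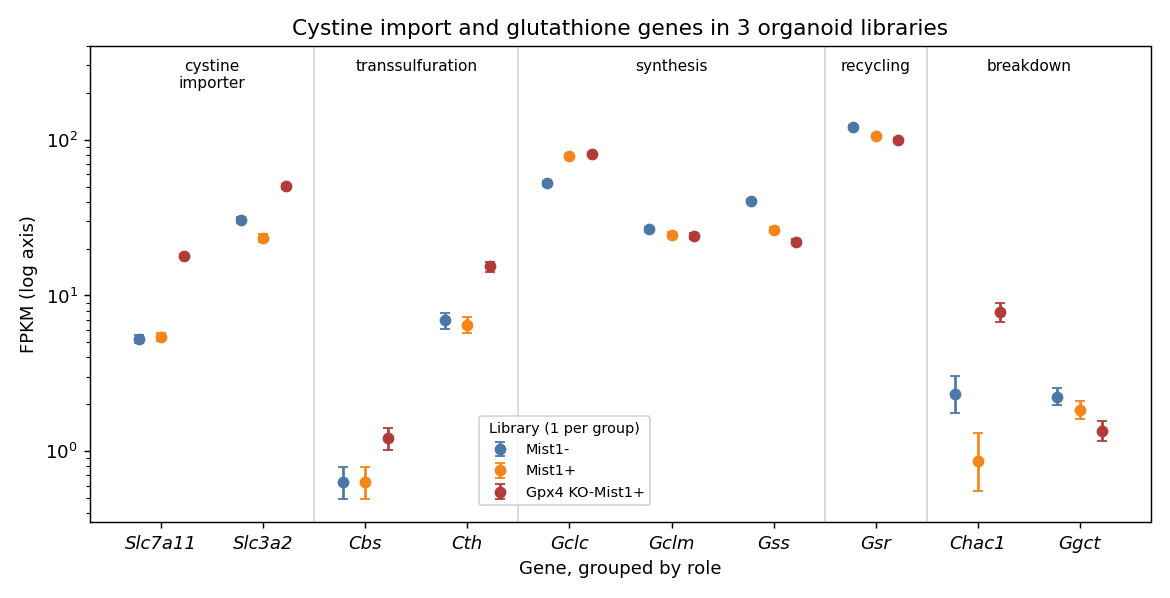
FPKM on a log axis for the 10 genes, grouped by role, with 1 point per library (Mist1- blue, Mist1+ orange, Gpx4 KO-Mist1+ red) and bars for exact 95% Poisson intervals of the counts. Slc7a11, Slc3a2, Cbs, Cth and Chac1 are highest in the labelled knockout, whereas Gclm and Gsr lie nearly level and Gss and Ggct are highest in Mist1-.

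Transsulfuration makes cysteine inside the cell. Cbs (chr17:31608894-31637238, minus strand) joins homocysteine to serine, and Cth (chr3:157894248-157925077, minus strand), the cystathionine gamma-lyase, releases cysteine from the product. Cth had 288, 293 and 703 counts, or 6.91 (6.13 to 7.76), 6.49 (5.77 to 7.28) and 15.4 FPKM (14.2 to 16.5). Cbs was the lowest of the 10 genes in each library, with 70, 76 and 148 counts, or 0.63 FPKM (0.491 to 0.796), 0.63 (0.496 to 0.789) and 1.21 (1.02 to 1.42). Both genes were level between the WT libraries and higher in the labelled knockout, Cth 2.37-fold (2.06 to 2.72) and Cbs 1.92-fold (1.45 to 2.57) over Mist1+. The ratio of Cth to Cbs was 11 (8.47 to 14.5), 10.3 (8.01 to 13.5) and 12.7 (10.7 to 15.3), so it did not differ beyond counting error. Cbs alone among the 10 genes reached 1 FPKM, the limit used below for the comparisons, through the labelled knockout only.

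Glutamate-cysteine ligase makes the first bond of glutathione. Gclc (chr9:77754535-77794485, plus strand), its catalytic subunit, had 2949, 4804 and 4995 counts, or 52.4 (50.5 to 54.3), 78.8 (76.6 to 81.1) and 80.9 FPKM (78.7 to 83.2) in Mist1-, Mist1+ and the labelled knockout. Gclm (chr3:122245557-122270732, plus strand), the modifier subunit that eases feedback inhibition by glutathione, had 2506, 2490 and 2489 counts, or 26.7 (25.6 to 27.7), 24.4 (23.5 to 25.4) and 24.1 FPKM (23.2 to 25.1). Gclc was thus lower in Mist1- than in the other libraries, which overlapped each other, while Gclm spanned a narrow range. The ratio of Gclc to Gclm was 1.97 (1.86 to 2.07), 3.22 (3.07 to 3.38) and 3.35 (3.19 to 3.52). In GENCODE M21 a noncoding gene on the opposite strand and a pseudogene overlap 4.71% and 3.88% of the Gclm exons.

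Gss (chr2:155563181-155592810, minus strand), glutathione synthetase, adds glycine. It had 3572, 2526 and 2156 counts, or 40.4 (39.1 to 41.8), 26.4 (25.4 to 27.4) and 22.2 FPKM (21.3 to 23.2). Gss was thus highest in Mist1-, where Gclc was lowest. The ratio of Gss to Gclc was 0.771 (0.734 to 0.810), 0.335 (0.319 to 0.351) and 0.275 (0.261 to 0.289). Acss2 and 2 antisense genes overlap 6.68%, 5.44% and 6.51% of the Gss exons on the opposite strand, and the strand setting of the counting is not given, so reads of these genes cannot be told apart there. Gsr (chr8:33652523-33698163, plus strand), the reductase that regenerates glutathione from its oxidised form with NADPH, was the most abundant of the 10 in each library. Gsr had 5000, 4703 and 4526 counts, or 121 FPKM (118 to 125), 106 (103 to 109) and 100 (97.3 to 103).

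Chac1 and Ggct act in breakdown. Chac1 (chr2:119351229-119354381, plus strand) cleaves glutathione itself, and Ggct (chr6:54982580-54992950, minus strand) releases pyroglutamate from gamma-glutamyl amino acids. Chac1 had 57, 23 and 209 counts, or 2.33 (1.76 to 3.02), 0.87 (0.552 to 1.31) and 7.79 FPKM (6.77 to 8.92), and the 3 intervals do not overlap. It was 3.34-fold (2.48 to 4.56) higher in the labelled knockout than in Mist1- and 2.68-fold (1.63 to 4.57) lower in Mist1+ than in Mist1-. Ggct had 259, 231 and 172 counts, or 2.24 (1.98 to 2.53), 1.84 (1.61 to 2.09) and 1.35 FPKM (1.16 to 1.57). Its order was thus Mist1-, Mist1+ and the labelled knockout from high to low, with overlapping intervals for the WT libraries. The related gene Chac2, which cleaves glutathione at a slower, steady rate, was at 32.7, 26.6 and 20.8 FPKM, above Chac1 in each library.

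By FPKM the order of the genes in Mist1+ was Gsr, Gclc, Gss, Gclm, Slc3a2, Cth, Slc7a11, Ggct, Chac1 and Cbs. Gss, Gclm and Slc3a2 stood close together there, and the intervals of Gclm overlapped those of both neighbours. In the labelled knockout Slc3a2 moved up to the third place and Slc7a11 to the sixth. Among the 13351 genes with at least 1 FPKM in some library, 57.0% were above Slc7a11 in Mist1+ and 21.6% in the labelled knockout; for Chac1 the shares were 93.2% and 44.3%. Levels of different genes depend on the exonic length in the table, which counts every annotated exon. It was 13922 bases for Slc7a11, 7745 for Ggct and 5915 for Gss, against longest coding transcripts of 9223, 3960 and 1963 bases in GENCODE M21, but 1637 in both for Chac1. Folds of the counts do not depend on this length, whereas the log2 ratios of FPKM plus 1 do.

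The comparison of the labelled knockout with Mist1+ addresses what goes with the Gpx4 knockout label among Mist1+ organoids. Slc7a11, Slc3a2, Cth and Chac1 were higher there by 2-fold or more, and none of the 10 genes was lower by 2-fold or more. For this count the log2 ratio was taken of FPKM plus 1, which makes low genes less far apart. The 4 genes of 10 stand beside 4.81% of all 13351 genes higher by 2-fold or more, and the 0 of 10 beside 2.74% lower. The log2 ratios were 1.56 for Slc7a11, 1.07 for Slc3a2, 1.13 for Cth and 2.23 for Chac1, which only 0.607% of all genes exceeded. Cbs followed at 0.44 and Gclc at 0.04. Gclm, Gsr, Gss and Ggct were at -0.02, -0.07, -0.24 and -0.27. Synthesis and recycling genes thus lay within a narrow band around the median of all genes, -0.09, and the importer, Cth and Chac1 stood above it. The median over the 10 genes was 0.24, and 0.04 without Cbs. With a pseudocount of 5 the count was 2 genes, Slc7a11 and Chac1, since Slc3a2 (0.96) and Cth (0.83) then lay just under 2-fold. The signs of Gclm and Gsr turned under other scalings, and those of the other 8 genes did not.

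**Figure D2:**
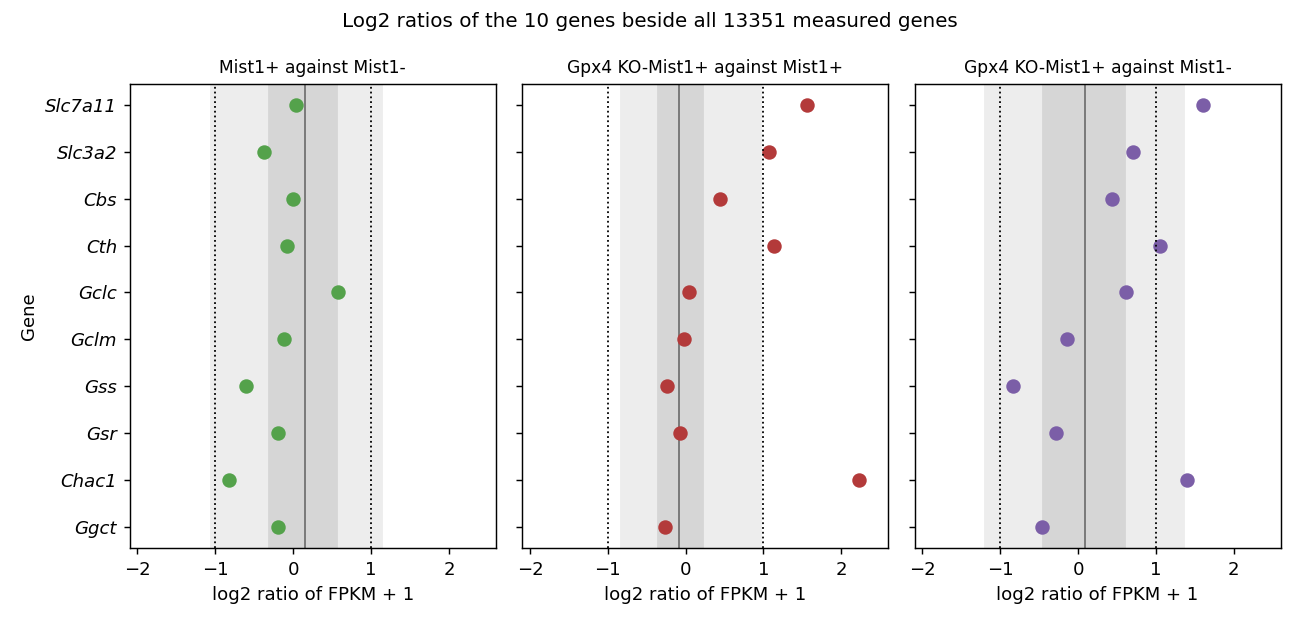
Log2 ratios of FPKM + 1 for the 10 genes (points) in the 3 comparisons; dark and light grey bands span the middle 50% and 90% of all measured genes, the grey line is their median and dotted lines mark 2-fold. In the labelled knockout against Mist1+, Slc7a11, Slc3a2, Cth and Chac1 lie beyond the right dotted line, and in Mist1+ against Mist1- no gene lies beyond either line.

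Comparing Mist1+ with Mist1- sets organoids derived from Mist1+ cells beside those derived from Mist1- cells. None of the 10 genes was apart by 2-fold or more on the log2 scale of FPKM plus 1, beside 7.88% of all genes higher and 5.73% lower by that much. The extremes were Gclc at 0.58 and Chac1 at -0.83, with Gss at -0.60 and Slc3a2 at -0.37. Slc7a11 (0.04), Cbs (0.0000), Cth (-0.08), Gclm (-0.12), Ggct (-0.19) and Gsr (-0.20) were nearer to 0. Chac1 was beyond 2-fold in the scaled counts, without a pseudocount, at -1.42. The signs of Gclc, Chac1, Gss and Slc3a2 were the same under every scaling tried, and those of the other 6 genes were not.

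The log2 ratios of this pair of libraries have a trend with gene length. Over 13351 genes the Spearman rho of exonic length and log2 ratio was 0.49, a description across genes, which are not independent. The median log2 ratio of all genes was -0.23 in the second of 5 equal length classes, where Gsr, Chac1 and Cth stand, 0.09 in the third with Slc3a2 and Gclc, 0.36 in the fourth with Gclm and Gss, and 0.63 in the longest with Slc7a11, Cbs and Ggct. With this trend removed, Slc7a11 was at -0.71, Gss at -0.96, Ggct at -0.70, Gclm at -0.52 and Chac1 at -0.43, while Gclc was at 0.50. The part of the trend in any gene's difference was not tested. The split of all genes past 2-fold, higher to lower, was 1052 to 765, but 3101 to 510 on TPM, where each library's FPKM are set to the same total, and 646 to 1217 with median ratio scaling, and the median of all genes moved from 0.15 to 0.47 and -0.02.

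**Figure D3:**
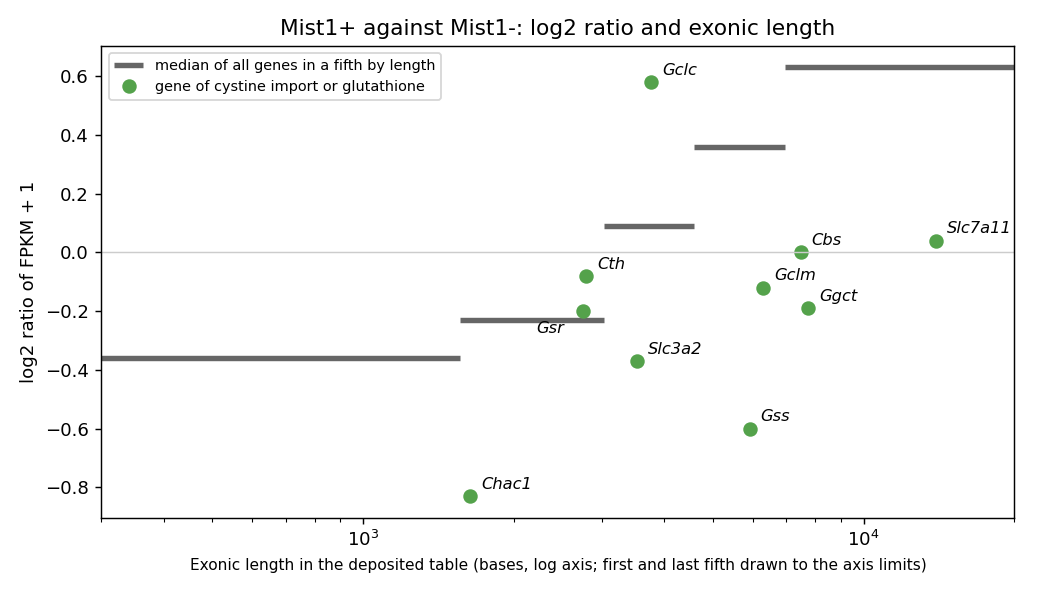
Log2 ratio of FPKM + 1 in Mist1+ against Mist1- over exonic length (log axis) for the 10 genes (green points), with the median of all measured genes in each of 5 length classes as grey bars. The bars climb from -0.36 to 0.63, and Gclc is the one labelled gene well above its bar while Gss, Slc7a11, Ggct, Cbs, Gclm, Chac1 and Slc3a2 are below theirs.

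Against Mist1-, the labelled knockout had Slc7a11 (log2 ratio 1.60), Chac1 (1.40) and Cth (1.05) higher by 2-fold or more, 3 of 10 beside 11.6% of all genes, and none lower by as much, beside 8.56%. This comparison shares its libraries with the preceding ones. Slc3a2 was at 0.70, Gclc at 0.62, Cbs at 0.44, Gclm at -0.14, Gsr at -0.28, Ggct at -0.46 and Gss at -0.83. So Gclc and Gss, which were near level or slightly lower against Mist1+, differed more against Mist1-. A length trend was present here too (rho 0.39); with it removed Slc7a11, at 0.86, no longer passed 2-fold, Cth was at 1.24, and Gss, at -1.11, passed 2-fold downward. With median ratio scaling Cth, at 0.93, no longer passed. On TPM Slc3a2 passed as well, and with a pseudocount of 5 Slc7a11 (1.16) alone did. The split of all genes was 1553 to 1143, but 3223 to 797 on TPM and 1275 to 1504 with median ratio scaling.

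The pathway around these genes was followed in 70 others of cysteine transport, the methionine cycle, sulfide metabolism, the gamma-glutamyl cycle, glutamate and glycine supply, glutathione carriers, glutaredoxins and glyoxalases, of which 55 reached 1 FPKM in some library. In the labelled knockout against Mist1+ only Slc1a4 of these was past 2-fold, upward, 1 of 55 beside 4.81% of all genes, and the median log2 ratio was -0.01. Slc1a4, a carrier of small neutral amino acids including cysteine, was at 5.66, 4.86 and 12.8 FPKM in Mist1-, Mist1+ and the labelled knockout, 2.63-fold (2.31 to 3.01) over Mist1+. Slc1a1, a glutamate and cysteine carrier, had a low level of 0.45, 0.58 and 1.9 FPKM and a log2 ratio of 0.88. Slc36a4 and the abundant glutamine carrier Slc1a5 were at -0.38 and 0.29. In the labelled knockout against Mist1-, 7 of the 55 were past 2-fold upward, beside 11.6% of all genes, and 2 downward, beside 8.56%. Those upward were Slc1a1, Slc1a4, Slc7a5, Ahcyl1, Anpep, Abcc1 and Abcc4, and those downward were Suox and Glrx5. The median log2 ratio was 0.07. The upward count was 2 with median ratio scaling or the length trend removed, 11 on TPM and 1 with a pseudocount of 5. Over all 13351 genes it was 1553 as reported and 1275, 1050, 3223 and 349 under these settings in turn.

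In the methionine cycle Mat2a, which makes the methyl donor S-adenosylmethionine, was at 68.5, 99.7 and 52.3 FPKM, 1.9-fold (1.83 to 1.98) lower in the labelled knockout than in Mist1+. The list followed for it has 10 measured genes, the Ahcy-like genes Ahcyl1 and Ahcyl2 among them. Of these 10, 8 had a log2 ratio below 0 against Mist1+, beside 7850 of all 13351 genes. The median of the 10 was -0.27. The glycine N-methyltransferase gene Gnmt was at -0.85, on 58 and 24 counts, and Ahcyl1 was at 0.50. In cysteine use, the sulfite oxidase gene Suox was at 12.3, 10.4 and 4.76 FPKM, a log2 ratio of -0.98. Mpst, which makes sulfide from cysteine, was at 0.41, Got1 at 0.32 and Csad at -0.30. Cbs and Cth were thus higher, and Mat2a, which acts earlier in the same route, was lower.

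Genes that supply the other amino acids of glutathione were above 0 against Mist1+ for 5 of 9, beside 5430 of all 13351 genes. The median of the 9 was 0.25, and none was past 2-fold. The serine synthesis genes Psat1 and Phgdh were at 0.87 and 0.66, and Shmt2, which makes glycine, at 0.48. Glutathione and the dipeptide left from it are taken apart by gamma-glutamyl transferases and peptidases, some at the cell surface and some in the cytosol. Of the genes listed for this Ggt6 was at 0.74 and the aminopeptidase gene Anpep at -0.77, with Cndp2 at -0.72 and Lap3 at -0.53. In Mist1+ against Mist1- Anpep was the only neighbour past 2-fold upward (beside 7.88% of all genes), at 41.0, 145 and 85.0 FPKM in the 3 libraries, and Esd, which hydrolyses S-formylglutathione, the only one past 2-fold downward (beside 5.73%), at 191, 87.8 and 142 FPKM. The 4 measured glutathione carriers were all above 0 in the labelled knockout against Mist1+, with Abcc1 at 0.65, Abcc4 at 0.49 and the mitochondrial carriers Slc25a40 and Slc25a39 at 0.32 and 0.20. Among 7 glutaredoxins and glyoxalases Esd was at 0.69, Hagh at 0.31, Glrx2 at -0.29 and Glrx5 at -0.28.

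Known regulators were measured beside their targets. Atf4 was at 139, 86.3 and 111 FPKM in Mist1-, Mist1+ and the labelled knockout, and Nfe2l2, the gene for NRF2, at 196, 186 and 125; both factors are set largely after transcription, so their transcripts do not give their activity. Of 23 regulators 3 were past 2-fold upward in that comparison of the labelled knockout with Mist1+: Cd44, whose variant form holds xCT at the membrane (1.89), Ddit3, a stress factor that works with ATF4 (1.39), and Atf5 (1.10). Beside these 3 stood 4.81% of all genes, as above. With a pseudocount of 5 the count of regulators was 1, beside 226 of all 13351 genes. Atf3 was the only one past 2-fold downward, at 21.3, 35.2 and 3.17 FPKM.

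Of 17 other measured ATF4 targets 6 were past 2-fold upward and none downward, all 17 were above 0 (16 on TPM), and the median was 0.76. The upward count was 4 with a pseudocount of 5, and 7 with a pseudocount of 0.1 or median ratio scaling. Atf3 (-3.12), Ddit3 (1.39) and Atf5 (1.10) were counted with the regulators and not in this list. Slc7a5, Psat1, Phgdh and Shmt2 of this list are also among the pathway genes above. Trib3 was at 1.51, 0.58 and 9.16 FPKM, Ddit4 at 35.6, 18.6 and 103, Vldlr at 3.56, 4.49 and 20.4 and Nupr1 at 6.73, 2.29 and 9.46. Of these, Trib3, Ddit4 and Nupr1 had the order of Chac1, lowest in Mist1+ and highest in the labelled knockout. Asns, the asparagine synthetase gene and a common readout of ATF4, was at 161, 175 and 192 FPKM, a log2 ratio of 0.13, so the list did not move evenly. Of 24 other NRF2 targets 1 was past 2-fold upward and none downward, and the median was 0.05. The upward count was 3 with median ratio scaling or the length trend removed, 2 on TPM and 0 with a pseudocount of 5. That gene was the heme oxygenase gene Hmox1 at 1.31. Nqo1, Me1 and the glutathione transferase gene Gsta4 were at 0.95, 0.93 and -0.95. Several of the 10 genes, which are in neither list, are also known to be raised by NRF2. Gclc and Gclm were at 0.04 and -0.02 and Slc7a11 at 1.56, as given above. These lists are described by their counts and medians only. Of all 13351 genes 4.81%, or 642, were past 2-fold upward and 5430 were above 0, with a median of -0.09. The 642 became 226 with a pseudocount of 5 and 1028 with a pseudocount of 0.1. They became 697 with median ratio scaling, 884 on TPM and 728 with the length trend removed.

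**Figure D4:**
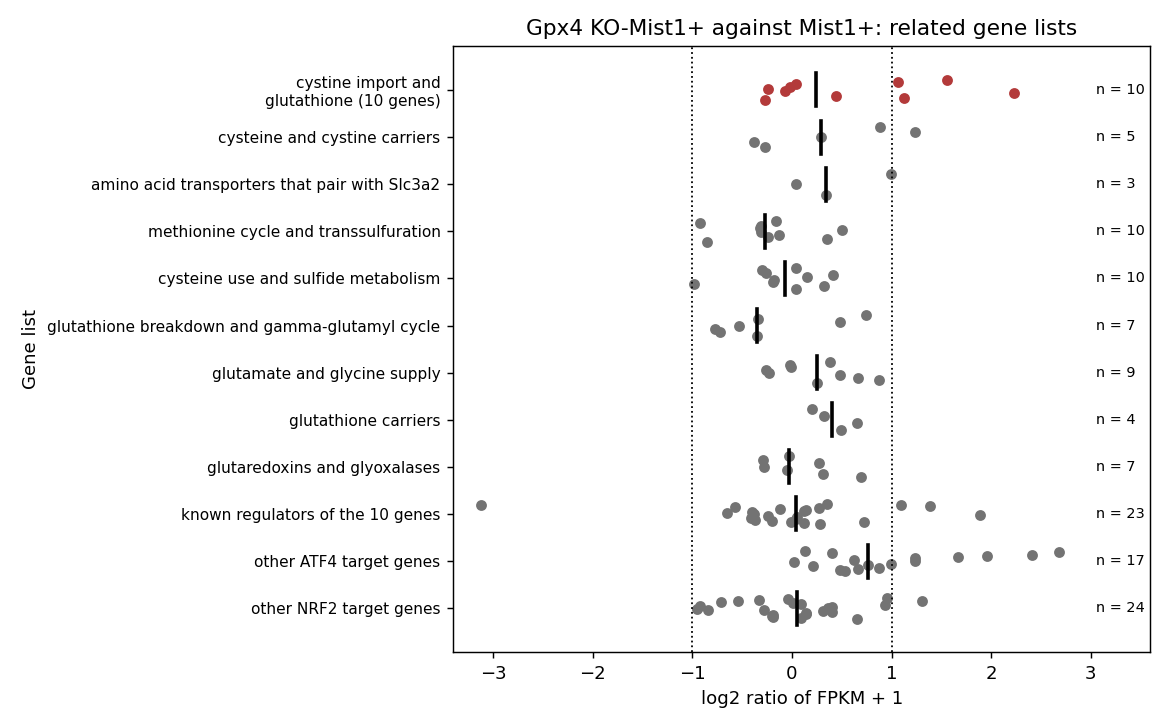
Log2 ratio of FPKM + 1 in the labelled knockout against Mist1+ for each measured gene of the 10 genes (red) and of related lists (grey), with black bars for list medians, dotted lines at 2-fold and n as the number of genes shown. The ATF4 targets listed apart from the regulators, so without Atf3, lie to the right of 0, with a median of 0.76. NRF2 targets spread around 0.05. Of the 10 genes 4 lie past 2-fold, Cbs is at 0.44, and the others lie between -0.27 and 0.04.

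The genes whose pattern over the 3 libraries was most like that of a member were taken by the distance between log2 ratios, among 12126 genes with a symbol and at least 50 counts in all. For Slc7a11 they were Naip5 (distance 0.02), Flvcr2 (0.02) and Ugt1a6b (0.04). For Slc3a2 they were Atf5 (0.03), Pgam1 (0.03) and Stx11 (0.04), and for Chac1 Ak4 (0.05), Calml4 (0.15) and St3gal4 (0.15). For Cth they were Fgf11 (0.05), Gbp8 (0.05) and Pim1 (0.07). Within a distance of 0.25 stood 39 genes for Slc7a11, 87 for Slc3a2, 18 for Chac1 and 104 for Cth, so 3 libraries single out few neighbours. Flvcr2 (0.27, 0.3 and 2.78 FPKM), Ugt1a6b (0.08, 0.1 and 2.33) and Gbp8 (0.21, 0.11 and 1.4) were below 1 FPKM in both WT libraries, where the pseudocount of 1 sets most of the ratio, so their likeness does not extend to folds of the counts. Naip5 and Ugt1a6b belong to families of near-identical genes, and their counts are uncertain.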

How the data were processed

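Counts and FPKM of 3 libraries, 1 per group, were taken from a single deposited table. Per the submitters' processing notes the tools were cutadapt 1.9.1, HISAT2 2.2.1 and HTSeq 0.6.1, with the build GRCm38.p5; their settings and the annotation release are not given in the sources used here. Per the file headers the authors deposited whole-number read counts and FPKM for each library. The deposited FPKM equalled count over exonic length and column total within 2.77%, 1.34% and 1.59% for genes with at least 50 counts. Of 52073 gene identifiers shared with GENCODE M21 (GRCm38), 96.1% had the exonic length of M21 but 2.83% its start and end, so no coordinates of the table are printed. Lines without a symbol, 2639 in all, held at most 0.298% of the counts and stayed in the totals.

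Genes with at least 1 FPKM in some library were kept (13351, among them all 10 members). Log2 ratios used a pseudocount of 1, and at least 2-fold was counted; the script was tested on simulated data. The trend on length was removed by lowess (fraction 0.3). Named were all members, up to 4 genes per list and comparison with the largest ratios, and the 3 genes of most like pattern for members at least 2-fold apart; other genes named (Asns, Atf4, Nfe2l2, Txnrd1, Cd68 and Ptprc) were chosen after their values were seen. Some genes that the rule names are not reported here. The members and lists were chosen with earlier results of these data known. The motifs were chosen after the data had been seen. The tools were statsmodels 0.14.6, matplotlib 3.10.9, scipy 1.17.1, pandas 2.3.3 and numpy 2.4.6 in Python 3.11.15. Other pseudocounts, filters, scalings and thresholds were tried, and leaving out Cbs was added after the values were seen.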

Additional observations from a re-analysis of the deposited data

How the results depend on the processing

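No paired analysis was possible because each group has 1 library and the titles carry no replicate number. The 2-fold counts of members and pathway neighbours, and the members' medians, stayed within 1.5 times or within counting error of the reported values under the alternatives not named here; every median below is a log2 ratio over the members. With a pseudocount of 0.1, 1 member (Chac1) passed 2-fold downward in Mist1+ against Mist1-. Pathway neighbours higher and lower were then 3 and 2 for Mist1+ against Mist1-, 4 and 2 for the labelled knockout against Mist1+, and 11 and 4 against Mist1-, with medians of 0.44 and 0.67 for the labelled knockout against Mist1+ and Mist1-. Scaled counts without a pseudocount gave the same numbers of neighbours and 1 member lower, with medians of 0.49 and 0.67. With a pseudocount of 5, 2 members were higher against Mist1+ and 1 against Mist1-, neighbours were 0 higher, and 1 higher with 0 lower, and the medians were 0.09 and 0.36.

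With at least 5 FPKM required, 8 members were left, with medians of 0.55 and 0.66. On TPM the median for Mist1+ against Mist1- turned from -0.16 to 0.16, with neighbours 5 higher and 0 lower; against Mist1+ neighbours were 2 and 2 with a median of 0.34, and against Mist1- 11 were higher with a median of 0.90. Median ratio scaling gave 3 neighbours lower and a median of -0.34 for Mist1+ against Mist1-, and 2 neighbours higher in each comparison of the labelled knockout, with a median of 0.43 against Mist1-. A threshold of 1.5-fold gave 2 members lower (Chac1 and Gss) and 6 and 6 neighbours for Mist1+ against Mist1-, 8 and 5 neighbours against Mist1+, and 5 and 1 members and 13 and 8 neighbours against Mist1-. At 4-fold 1 member (Chac1) was higher against Mist1+ and 0 against Mist1-, and 0 neighbours passed in any comparison. The share of all genes past 1.5-fold or 4-fold is not given here, so the counts at these thresholds have no background beside them. With the length trend removed the medians were -0.46, 0.35 and 0.33 in the order of the comparisons, 3 neighbours were lower in Mist1+, 2 were higher in the labelled knockout against each other library, and 1 member (Gss) was lower against Mist1-. Without Cbs the median against Mist1+ was 0.04. Over all genes the reported higher and lower counts were 1052 and 765, 642 and 366, and 1553 and 1143 in the same order; a pseudocount of 0.1 gave 1986 and 1130, 1028 and 773, and 2477 and 1622, and a pseudocount of 5 gave 129 and 396, 226 and 70, and 349 and 564. Scaled counts gave 1889 and 1088, 950 and 726, and 2331 and 1591, requiring 5 FPKM gave 649 and 616, 374 and 201, and 963 and 953, TPM gave 884 and 689 for the labelled knockout against Mist1+, and removing the length trend gave 584 and 516 for Mist1+ against Mist1-. Apart from settings whose construction shows it, the cause was not tested.

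Depth limits Chac1 and Cbs most, with 23 and 76 counts in Mist1+; 3 counts correspond to 0.113 and 0.0248 FPKM there.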

Other observations

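Most genes of the NRF2 list were lower in Mist1+ than in Mist1-: 20 of 24 measured targets were below 0, beside 5411 of all 13351 genes. The count of targets was 18 on TPM and 23 with median ratio scaling. Of the 24, 6 were past 2-fold downward (3 on TPM, 11 with median ratio scaling and 4 with the length trend removed), beside 5.73% of all genes, with a median log2 ratio of -0.64, or -0.31 on TPM and -0.54 with the length trend removed. Over all genes the downward count was 765 as reported, 510 on TPM, 1217 with median ratio scaling and 516 with the length trend removed. The quinone reductase gene Nqo1 was at 13.7, 4.18 and 9.03 FPKM in Mist1-, Mist1+ and the labelled knockout, and Gstp1 at 337, 138 and 182. Gsta1 and Gsta2, near-identical copies with uncertain counts, were at -1.79 and -1.67. Gclc, known to answer to the same factor, was at 0.58 in that comparison, on the other side of 0, and Txnrd1 at 0.15. The other synthesis and recycling genes were below 0, Gclm at -0.12, Gsr at -0.20 and Gss at -0.60. Of these only Gss kept its sign under every scaling. In the labelled knockout 8 of the 24 were past 2-fold downward against Mist1- (4 on TPM and 4 with the length trend removed), beside 8.56% of all genes, Gsta4 among them at 2341, 1249 and 644 FPKM in the 3 libraries. Over all genes the downward count there was 1143 as reported, 797 on TPM and 813 with the length trend removed. The glutathione exporter gene Abcc1 was the only one of the list past 2-fold upward there, at 4.08, 7.61 and 12.5 FPKM, and with the length trend removed or a pseudocount of 5 none was.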
